A study of Mesocricetus auratus with 8 samples.

Results

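The expression of 9 genes for uncoupling proteins and for regulators of mitochondrial biogenesis was examined in satellite cells (SCs), from which skeletal muscle fibres are repaired, before and after cold exposure. The genes were chosen by symbol: Ucp2, Ucp3, Ppargc1a, Ppargc1b, Ppara, Ppard, Esrra, Nrf1 and Tfam. All 9 were found, each once, among the 17590 genes with values in a table of 31581 entries. The primary SCs came from hindlimb muscles of sexually mature male wild-type Syrian hamsters (Slc:Syrian, 8 to 16 weeks old) and were enriched by preplating. Cultures of both groups were kept at 37°C for 48 h in growth medium and for a further 24 h in growth medium with 100 mM HEPES. Control libraries (n = 4) were made at that point, and cold libraries (n = 4) after another 24 h at 4°C, so cold and time in culture cannot be told apart. The treatment labels of the controls give 3, 4, 5 and 6 days at 37°C, whereas their titles place all of them on day 3, and neither the labels nor the study's methods say which animals a library holds or what a replicate number marks. The study calls the libraries of a group biological replicates, without saying whether these are separate animals or cultures. The p-values therefore weigh a difference against the spread between these libraries only. In fits that take the replicate number as a block, that spread is what remains after the replicate number.

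Uncoupling proteins are carriers of the inner mitochondrial membrane. UCP1 lets protons return to the matrix in brown fat, which releases heat. UCP2 and UCP3 are related carriers whose transport roles are less settled, UCP3 being best known from skeletal muscle. Mitochondrial biogenesis is steered by the coactivators PGC-1α (Ppargc1a) and PGC-1β (Ppargc1b), which bind nuclear receptors such as PPARα, PPARδ and ERRα and the transcription factor NRF1. NRF1 drives nuclear genes for respiration and for TFAM, which packages mitochondrial DNA and starts its transcription. In muscle, PGC-1α is known for its response to exercise and, in brown fat, to cold.

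The library depth was between 16530747 and 18533801 expected counts. The genes of SCs and myoblasts were present in every library, with a summed level of 1946 to 2298 TPM (a level corrected for transcript length and scaled to the same total in each library) in control and 1861 to 2132 TPM in cold libraries over the 10 markers Pax7, Myf5, Myod1, Des, Cdh15, Itga7, Vcam1, Sdc4, Msc and Chrdl2. Fibroblast markers summed to 1770 to 2309 and 1712 to 2203 TPM (9 of 10 with values), macrophage markers to 41.3 to 97.4 and 44.2 to 104.8 TPM (7 of 8), adipocyte markers to 4.18 to 6.85 and 4.98 to 8.19 TPM (7 of 9), and endothelial markers to 2.55 to 4.22 and 2.45 to 4.11 TPM (6 of 6). Within these lists the leukocyte gene Ptprc and the adipocyte gene Adipoq each had at most 0.03 TPM in any library. The macrophage sum came mostly from Cd68 (means of 34.1 TPM for control and 37.7 TPM for cold) and Cd14 (27.7 and 30.9 TPM), and the adipocyte sum mostly from Pparg (2.95 and 3.46 TPM) and Cfd (2.01 and 2.22 TPM). In bulk libraries, fewer cells of a type and less RNA per cell cannot be told apart.

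The 9 genes ranged from 34.5 TPM in mean control level down to 0, and the order was nearly the same in both conditions. In control libraries, Tfam (34.5 TPM), Esrra (33.6 TPM) and Ppard (32.6 TPM) had the highest mean levels, and their ranges overlapped. Nrf1 followed at 19.3 TPM, below every value of the 3 genes before it. Ppargc1b had 5.65 TPM. Ppara (0.658 TPM), Ucp2 (0.428 TPM) and Ppargc1a (0.0975 TPM) were below 1 TPM in every library, and their control ranges overlapped from one gene to the next. Ucp3 was listed at 0. Among all genes with values, the mean control TPM stood at the 77.7th percentile for Tfam, the 48.4th for Ppargc1b, the 29.7th for Ucp2 and the 21.3rd for Ppargc1a. In cold libraries, Esrra and Ppard changed places, with overlapping ranges, and the ranges of Ucp2 and Ppargc1a no longer overlapped. Cold and control values overlapped in each of the 8 genes above 0. Among the tested genes every cold TPM lay below every control TPM in 2.41% and above in 2.27%, so 0 of 8 is near the background.

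**Figure D1:**
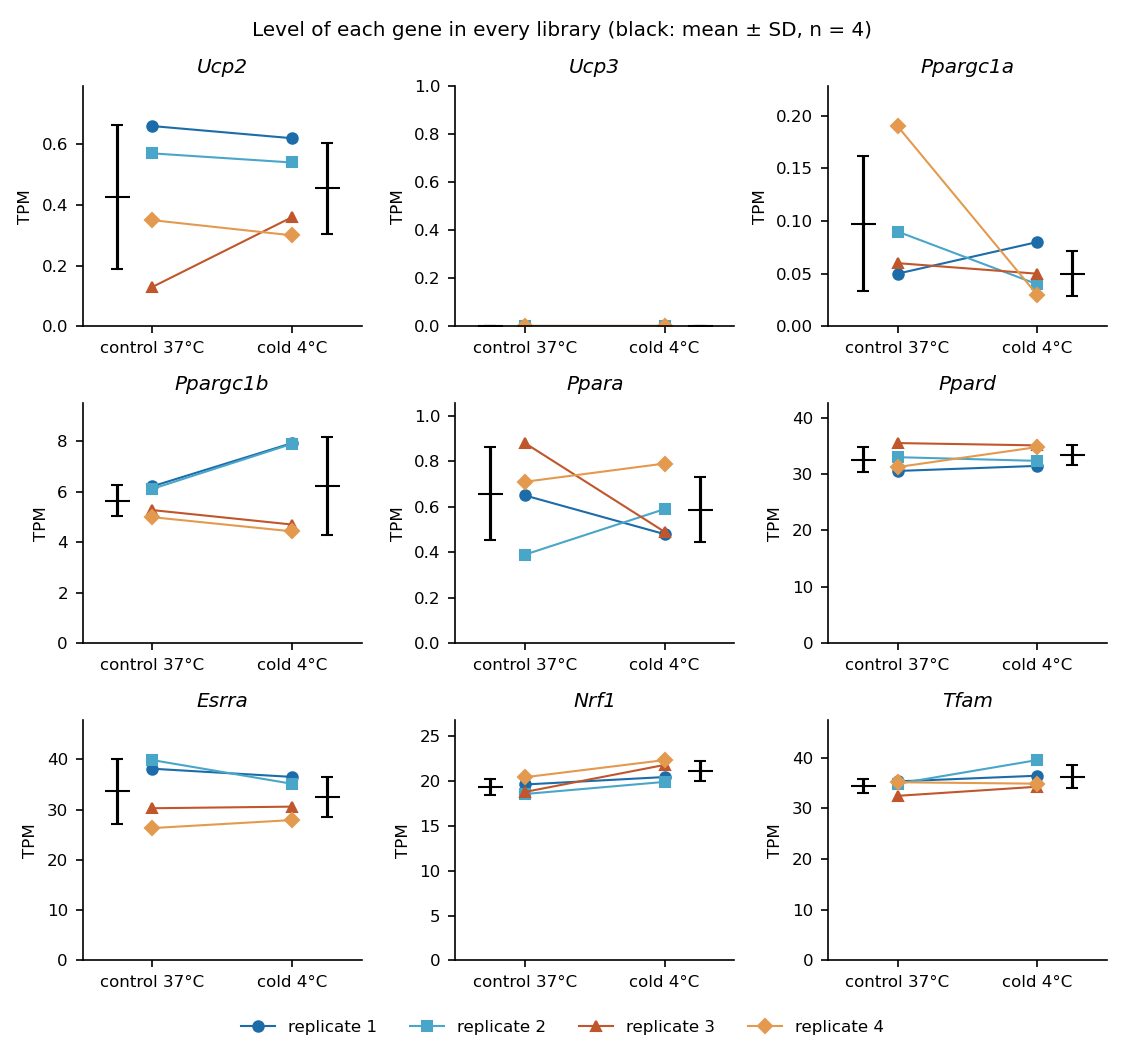
Level of each of the 9 genes (TPM, each axis from 0) in 4 control and 4 cold libraries, with lines joining libraries of the same replicate number and black bars for the mean ± SD. Control and cold values overlap in the 8 genes above 0, Ucp3 is at 0 in every library, and Ppargc1b is higher in the cold in replicates 1 and 2 and lower in replicates 3 and 4.

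To determine whether cold exposure altered these genes, cold libraries were compared with control libraries by edgeR's quasi-likelihood test over 12506 genes that passed the filter on low counts. Of the 9 genes, 6 passed that filter: Ppargc1b, Ppara, Ppard, Esrra, Nrf1 and Tfam. EdgeR called 0 of the 6 at an adjusted p under 0.05, and it called 0.072% of all tested genes lower and 0% higher in the cold. With the further demand of a log2 fold change of 1 or more, up or down, 0.04% of all genes (5 genes) and 0 of the 6 were called. The study's own analysis of these libraries reported more genes at these limits, all lower in the cold. The share given here is therefore that of the edgeR fit and not of the study's analysis. No gene of the 6 had an unadjusted p under 0.05 either, with a background of 6.7% in both directions. Libraries of one replicate number deviated together from their group means (r = 0.61 to 0.66), and so, somewhat less, did replicate 1 with 2 (0.57 and 0.59) and 3 with 4 (0.43 and 0.47). A second edgeR fit took the replicate number as a block. With the block, edgeR called 0 of the 6 and 5.33% of all genes, made up of 4.07% lower and 1.26% higher. Of the 6 genes, only Nrf1 then had an unadjusted p under 0.05, as did 18.2% of all genes, 9.76% on the lower and 8.48% on the higher side. DESeq2 without the block called 0 of the 6 and 1.14% of all genes (1.1% lower, 0.04% higher). DESeq2 with the block called 0 of the 6 and 2.85% of all genes (2.56% lower, 0.296% higher). In these DESeq2 fits 0 of the 6 had an unadjusted p under 0.05, beside 5.9% and 9.36% of all genes. The log2 fold changes of the 6 genes lay between −0.072 and 0.12, with a median of 0.038, beside a median of 0.0071 over all genes tested. The 95% confidence intervals excluded a doubling and a halving for each of the 6 genes, as the plot of fold changes shows.

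**Figure D2:**
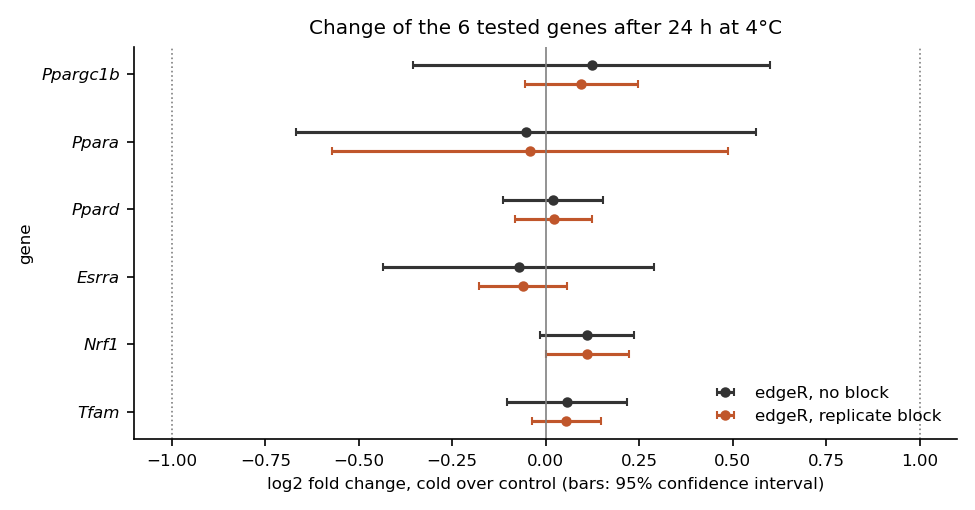
Log2 fold change of cold over control (x axis, with 95% confidence intervals) for the 6 tested genes, from edgeR without a block (grey) and with the replicate number as a block (orange). Dotted lines mark a log2 fold change of 1 in either direction, and every interval lies between them, the widest being that of Ppara, from −0.67 to 0.56 without the block.

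Of the uncoupling proteins, Ucp2 (NCBI Gene 101834552) had 0.66, 0.57, 0.13 and 0.35 TPM in control replicates 1 to 4 and 0.62, 0.54, 0.36 and 0.30 TPM in cold replicates 1 to 4. The values of the conditions overlapped, and replicates 1 and 2 held the 4 highest. The means were 0.428 ± 0.237 TPM for the controls and 0.455 ± 0.15 TPM after cold (SD, n = 4 each), and they differed by less than either SD (p = 0.914 by exact permutation, two-sided). These levels rest on 2 to 11 reads per library, 29 in all control and 31 in all cold libraries, a ratio of 1.05 after division by depth, with a 95% counting interval of 0.611 to 1.80 that leaves out the spread between libraries. Ucp3 (101834281) had 0 counts in all 8 libraries. A count of 0 allows up to 3 counts, which is 0.162 to 0.181 CPM (reads scaled to a common library total) depending on the library, so a change in Ucp3 was not detectable at this depth. Ucp1 was listed in the table without values.

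The coactivators differed widely in level. Ppargc1a (101822739) had 0.05, 0.09, 0.06 and 0.19 TPM in control replicates 1 to 4 and 0.08, 0.04, 0.05 and 0.03 TPM in cold replicates 1 to 4. Control replicate 4 stood highest, control replicate 2 lay just above the cold values, and control replicates 1 and 3 lay within their range. The summed counts were 29 in control and 15 in cold libraries, a ratio of 0.507 after division by depth, with a 95% counting interval of 0.253 to 0.977, but the difference in mean TPM (0.0975 ± 0.0640 against 0.050 ± 0.0216, SD, n = 4 each) did not exceed the spread between libraries (exact two-sided permutation test, p = 0.200). With no filter beyond 1 count, edgeR gave −0.96 as the log2 fold change (adjusted p = 0.926). Ppargc1a rested on 2 to 14 reads per library, and its counting interval lay below 1 while the test over libraries was not passed.

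Ppargc1b (101838328), the more abundant of the pair, moved in opposite directions in different replicates. It had 6.21, 6.11, 5.27 and 4.99 TPM in control replicates 1 to 4 and 7.92, 7.89, 4.70 and 4.43 TPM in cold replicates 1 to 4. The cold libraries thus held both the 2 highest and the 2 lowest of its 8 values. Within pairs of the same number, the log2 ratio of cold to control TPM was 0.35 and 0.37 in replicates 1 and 2 and −0.17 in each of replicates 3 and 4. Its mean went from 5.65 ± 0.607 to 6.24 ± 1.93 TPM (SD, n = 4 each, exact two-sided permutation p = 0.571), with an edgeR log2 fold change of 0.12 (standard error 0.21, 95% confidence interval −0.36 to 0.60, adjusted p = 0.999). With the replicate block the log2 fold change was 0.096 (interval −0.055 to 0.25, edgeR adjusted p = 0.533). Without cold replicate 1 or cold replicate 2, the unblocked value changed sign, to −0.017 and −0.025. With 1 library per condition and number, a difference between replicate numbers in the response was not tested. The log2 ratio of Ppargc1a to Ppargc1b within a library was −6.05 ± 0.961 in control and −7.00 ± 0.506 in cold libraries (SD, n = 4 each). That difference of −0.95 did not exceed the spread (exact two-sided permutation p = 0.114, or 0.229 adjusted over 2 ratios). Single libraries moved it both ways. Without control replicate 1 the difference was −1.25, with an unadjusted exact permutation p of 0.0286, the smallest that 3 libraries against 4 allow. Without control replicate 4 it was −0.50 (exact permutation p = 0.229), and the exact sign-flip permutation test over replicate pairs gave p = 0.375. The corresponding ratio of Ucp3 to Ucp2 could not be formed because Ucp3 was at 0.

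**Figure D3:**
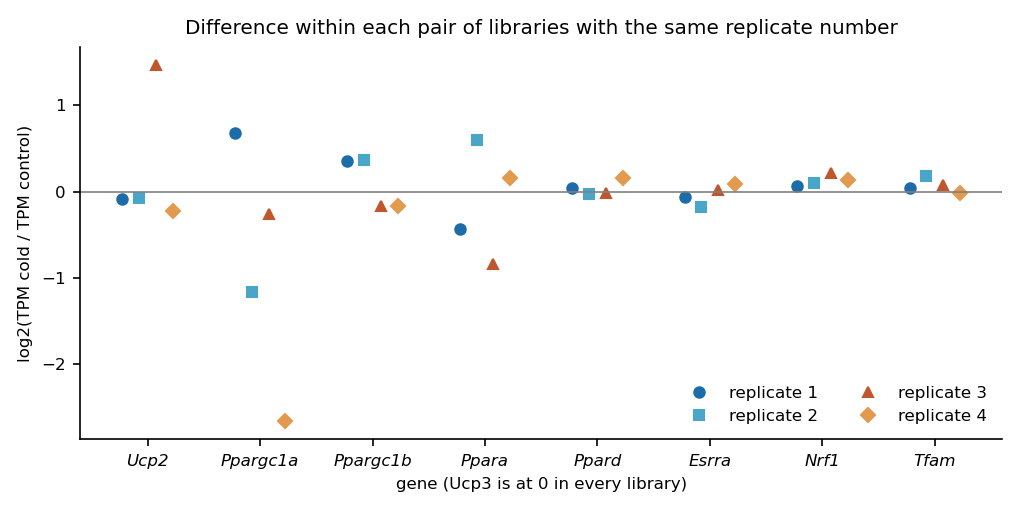
Log2 ratio of cold to control TPM (y axis) within each of the 4 replicate pairs, for the 8 genes above 0. Ppargc1b splits into 2 pairs above and 2 below 0, Nrf1 lies above 0 in 4 of 4 pairs (0.060 to 0.21), and Ucp2, Ppargc1a and Ppara, the genes with few reads, scatter most.

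Among the nuclear receptors, PPARα and PPARδ are activated by fatty acids and ERRα is an orphan receptor that PGC-1 coactivators act through. Ppara (101827388) had 0.65, 0.39, 0.88 and 0.71 TPM in control replicates 1 to 4 and 0.48, 0.59, 0.49 and 0.79 TPM in cold replicates 1 to 4. The values overlapped without order, with 16 to 32 reads per library. Its log2 fold change of −0.052 had a 95% confidence interval of −0.67 to 0.56 (edgeR adjusted p = 0.999). For this gene the TPM behind 1 read ranged 1.62-fold between libraries, against 1.11-fold to 1.16-fold in the other tested genes of the 9, so its TPM and its counts order the libraries differently.

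Ppard (101844162) had 30.5, 33.0, 35.5 and 31.2 TPM in control replicates 1 to 4 and 31.4, 32.3, 35.1 and 34.8 TPM in cold replicates 1 to 4. All 4 cold values lay within the control range. The log2 fold change was 0.020 (standard error 0.060, 95% confidence interval −0.11 to 0.15, edgeR adjusted p = 0.999), which bounds a difference to between 0.924-fold and 1.11-fold. The log2 ratio of Ppara to Ppard in TPM was −5.69 ± 0.485 in control and −5.86 ± 0.310 in cold libraries (SD, n = 4 each). That difference of −0.17 did not exceed the spread (exact two-sided permutation p = 0.600, also after adjustment over 2 ratios). On expected counts in place of TPM the difference was −0.020 (exact two-sided permutation p = 0.943).

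Esrra (101837378) varied by replicate number and not detectably by condition. It had 38.1, 39.8, 30.3 and 26.3 TPM in control replicates 1 to 4 and 36.5, 35.1, 30.6 and 27.9 TPM in cold replicates 1 to 4. In both conditions replicates 1 and 2 lay above replicates 3 and 4. The means were 33.6 ± 6.42 and 32.5 ± 3.98 TPM (SD, n = 4 each, exact two-sided permutation p = 0.743), and the log2 fold change was −0.072 (standard error 0.16, 95% confidence interval −0.44 to 0.29, edgeR adjusted p = 0.999). Taking the replicate number as a block narrowed the interval to −0.18 to 0.057, with an edgeR adjusted p of 0.625.

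Nrf1 (101840742), which encodes nuclear respiratory factor 1, came closest to a difference. It had 19.6, 18.5, 18.8 and 20.4 TPM in control replicates 1 to 4 and 20.4, 19.9, 21.8 and 22.3 TPM in cold replicates 1 to 4. The cold library was the higher one in 4 of 4 pairs, as was the case for 12.8% of all tested genes, but the groups overlapped, since control replicate 4 exceeded cold replicate 2. The means were 19.3 ± 0.852 and 21.1 ± 1.13 TPM (SD, n = 4 each, exact two-sided permutation p = 0.0571, where 0.0286 is the smallest p that 4 libraries against 4 allow). The log2 fold change was 0.11 (standard error 0.056, 95% confidence interval −0.016 to 0.24, edgeR adjusted p = 0.841). With the replicate block it was 0.11 with an unadjusted p of 0.0494 and an adjusted p of 0.272 (edgeR). Nrf1 thus did not pass the test in either fit, and its interval allowed at most a 1.18-fold difference upward without the block.

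Tfam (110342418) had 35.3, 34.9, 32.5 and 35.2 TPM in control replicates 1 to 4 and 36.4, 39.5, 34.3 and 34.9 TPM in cold replicates 1 to 4. Cold replicate 2 held the highest and control replicate 3 the lowest value, and the remaining 6 values lay between 34.3 and 36.4 TPM. The log2 fold change was 0.056 (standard error 0.071, 95% confidence interval −0.10 to 0.22, edgeR adjusted p = 0.999), or 0.930-fold to 1.16-fold, and the exact two-sided permutation test on TPM gave p = 0.257.

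The spread over the libraries was split between the replicate number and the condition. Since the replicate number takes 3 of the 7 degrees of freedom and the condition 1, each share is read against the median of all genes and not against the other share. On log2 CPM after TMM scaling, the replicate number held 91.1% of the sum of squares over the 8 libraries for Esrra, 86.3% for Ppargc1b and 84.1% for Tfam, against a median of 64.8% over all genes tested. The condition held 1.22%, 1.43% and 8.43% for these genes, against a median of 7.29%. On log2 TPM the share of the condition was 0.780%, 2.53% and 23.4%, against a median of 7.5%. Nrf1 was the gene with the smallest share for replicate number, 16.8%, and the largest for condition, 49.4% (38.2% and 51.5% on log2 TPM). On log2 TPM the shares for replicate number were 93.4% for Esrra and 78.2% for Ppargc1b but 55.1% for Tfam, below the median of 62.7% on that scale. The share of Ppard was 41.7% on log2 CPM and 72.5% on log2 TPM. Of the 6 genes, Esrra and Ppargc1b were thus the ones above the median on both scales. Markers of differentiating muscle moved with the replicate number as well: their summed level was 11854 and 11982 TPM in control replicates 1 and 2, and 6186 and 6893 TPM in control replicates 3 and 4. In cold replicates 1 to 4 that sum was 5909, 6974, 4093 and 4113 TPM. Macrophage markers summed to 46.8 and 41.3 TPM in control replicates 1 and 2 and to 97.4 and 75.4 TPM in control replicates 3 and 4. The part of these differences in the levels of Esrra and Ppargc1b was not tested.

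**Figure D4:**
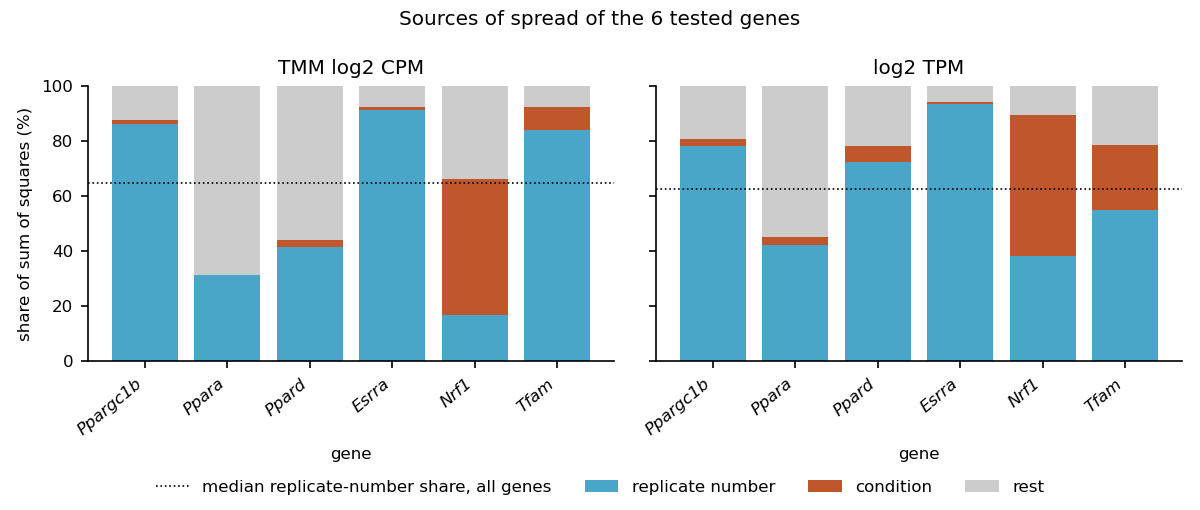
Share of the sum of squares over the 8 libraries (y axis, %) held by the replicate number, the condition and the rest for the 6 tested genes, on TMM log2 CPM (left) and on log2 TPM (right). The dotted line is the median replicate-number share of all genes (64.8% left, 62.7% right). Esrra and Ppargc1b lie above it on both scales, and Nrf1 has the largest share for condition.

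The genes whose pattern over the 8 libraries was most like that of each of the 6 genes were named by the Pearson correlation of log2 CPM, as a description of libraries that share the replicate structure above. The nearest were Qki (r = 0.985) and Rabggtb (0.981) for Ppargc1b, and Mtarc1 (0.953) and Dcaf11 (0.915) for Ppara. For Ppard they were Cul4a (0.943) and Clgn (0.936), and for Esrra Cpa4 (0.997) and Dbnl (0.994). Arhgap17 (0.956) was among the nearest for Nrf1, and Pak2 (0.986) and Utp18 (0.980) were nearest to Tfam. Each was picked from at least 10486 candidates over 8 libraries, where high values arise easily. Among the 6 tested genes themselves, Ppargc1b and Tfam had the highest correlation (r = 0.80), followed by Ppargc1b and Esrra (0.78), and Ppara and Tfam the lowest (−0.47).

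The wider program was then described through 7 gene lists holding 145 further genes, of which 117 were tested. Without the block, edgeR called 0 of the 117 at an adjusted p under 0.05. With the replicate block it called 6 lower (Mef2c, Mef2d, Mef2a, Mief2, Ryr1 and Atp2a1) and 0 higher, beside 4.07% lower and 1.26% higher over all genes.

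Of 36 partners and regulators of the PGC-1 coactivators, 32 were tested, with a median log2 fold change of 0.036 and 10 below and 22 above 0, beside 5894 below and 6612 above 0 over all genes tested. In the unblocked edgeR fit 0 were called, and 1 had an unadjusted p under 0.05. With the block, 6 had an unadjusted p under 0.05 on the lower and 4 on the higher side (9.76% and 8.48% of all genes), and edgeR called 3 lower at an adjusted p under 0.05, all of the MEF2 family of muscle transcription factors. Mef2c went from 23.2 ± 10.3 to 8.44 ± 2.18 TPM (SD, n = 4 each). The blocked edgeR fit put the log2 fold change at −1.43 (standard error 0.092, adjusted p = 3.43e-09, against 0.224 without the block), and DESeq2 also called it lower without the block (−1.50, adjusted p = 0.0190). Mef2c was also among the genes the study selected on these libraries, so it is not independent evidence. Mef2d and Mef2a had smaller log2 fold changes of −0.18 and −0.18 (edgeR adjusted p = 0.0399 and 0.0147 with the block). Both were lower in 4 of 4 pairs, as was the case for 10.5% of all tested genes. With the block, DESeq2 also called Mef2c and Mef2a lower but not Mef2d (adjusted p = 0.0790), and limma on log2 TPM called Mef2c but neither Mef2a nor Mef2d (adjusted p = 0.214 and 0.234). Pprc1, the remaining PGC-1 family coactivator, had mean levels of 36.8 TPM (control) and 37.6 TPM (cold), and the most abundant gene of the list was the arginine methyltransferase Prmt1, at 392 ± 15.1 and 377 ± 8.83 TPM (SD, n = 4 each, edgeR adjusted p = 0.862). Perm1, Esrrb, Esrrg and Rxrg did not pass the filter. Mean levels of Esrrb and Esrrg, the relatives of ERRα, were at most 0.113 TPM in either condition.

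TFAM works with a set of proteins that copy and transcribe mitochondrial DNA. Of 20 genes for mitochondrial DNA transcription and replication, 19 were tested, with a median log2 fold change of 0.014 and a range of −0.28 to 0.16. Both edgeR fits called 0, with 0 at an unadjusted p under 0.05 without the block and 3 with it (1 lower, 2 higher, against 18.2% of all genes), and DESeq2 called 0. The most abundant, Ssbp1, which encodes a single-stranded DNA binding protein of mitochondria, had 179 ± 8.57 and 180 ± 13.0 TPM (SD, n = 4 each). Of 21 genes used as readouts of mitochondrial content or as NRF1 targets, the table had values under these symbols for 11. They had a median of −0.0027, and 11 of 11 lay within 0.25 of 0 on the log2 scale, as did 11363 of the 12506 genes. The edgeR fits called 0 of them, with 0 at an unadjusted p under 0.05 without the block and 3 with it, all higher in the cold (8.48% of all genes), and DESeq2 called 0. Atp5f1b, for the catalytic subunit of ATP synthase, was the most abundant at 1651 ± 58.4 and 1603 ± 42.3 TPM (SD, n = 4 each, edgeR adjusted p = 0.999).

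Of 25 target genes of PPARs and ERRs, most of them for fatty acid oxidation, 20 were tested and 0 were called by edgeR without or with the block or by DESeq2, with 1 and 3 at an unadjusted p under 0.05 in the edgeR fits, all lower in the cold (9.76% of all genes with the block). The median log2 fold change was −0.037. Acadm, for medium-chain acyl-CoA dehydrogenase, was the most abundant at 95.8 ± 2.56 and 97.6 ± 2.39 TPM (SD, n = 4 each). Of 14 genes for mitochondrial fusion and fission, 14 were tested, 13 lay within 0.25 of 0 on the log2 scale, and edgeR called 1 lower with the block. Mief2, which encodes an adaptor that recruits the fission enzyme DRP1, had a log2 fold change of −0.41 in the blocked fit (standard error 0.087, edgeR adjusted p = 0.00720, against 0.307 without the block). DESeq2 did not call it with the block (adjusted p = 0.0899) or without (0.113), whereas limma with the block did (0.0273). Its mean level was 7.76 ± 0.498 TPM before and 5.82 ± 0.551 TPM after cold (SD, n = 4 each). Mtch2, at 281 ± 5.92 and 280 ± 8.84 TPM, was the most abundant.

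The carriers related to the uncoupling proteins included very abundant genes and genes of low level. All 14 were tested, with log2 fold changes between −0.12 and 0.15 and 0 called by edgeR without or with the block or by DESeq2 (0 at an unadjusted p under 0.05 without the block and 3 with it, all lower in the cold, against 9.76% of all genes). The adenine nucleotide carrier Slc25a5 had 1337 ± 71.9 and 1269 ± 54.6 TPM (SD, n = 4 each). Slc25a14, Slc25a27 and Slc25a30, which are close relatives of the UCPs, had 10.1, 1.63 and 18.9 TPM in control and 10.5, 1.89 and 19.9 TPM in cold libraries. Of 16 thermogenic genes, 13 had values and 7 were tested. Sln, for the calcium pump regulator sarcolipin, Otop1 and Ckmt2 had 0 counts in all 8 libraries, and the brown fat gene Cidea had at most 2 counts. Other genes of this list were expressed and passed the filter on low counts. Mean levels before and after cold were 3.07 and 3.20 TPM for Ebf2 and 1.73 and 2.27 TPM for Zic1. For Elovl3 they were 1.62 and 1.89 TPM, for Prdm16 0.628 and 0.61 TPM, and for Dio2 0.518 and 0.34 TPM. At an unadjusted p under 0.05, 2 of the 7 were lower without the block, and 3 were lower and 1 higher with it (9.76% and 8.48% of all genes with the block). At an adjusted p under 0.05, edgeR with the block called 2 lower, beside 4.07% of all genes, and both are genes of the sarcoplasmic reticulum. The calcium release channel gene Ryr1 went from 11.0 ± 3.41 to 6.90 ± 1.67 TPM (log2 fold change −0.68, standard error 0.053, edgeR adjusted p = 5.16e-08 with the block and 0.630 without). The calcium pump gene Atp2a1 went from 9.19 ± 0.737 to 6.79 ± 0.335 TPM (SD, n = 4 each, log2 fold change −0.45, edgeR adjusted p = 0.00101 with the block and 0.151 without). DESeq2 without the block called Atp2a1 lower (adjusted p = 0.00740) but not Ryr1 (0.222), and with the block it called both. Over the same libraries, 13 of 13 markers of differentiating muscle were called lower by edgeR with the block. Without the block, 13 of 13 also had a log2 fold change below 0 (median −1.44) and 10 an unadjusted p under 0.05, while edgeR called 1 and DESeq2 8 of them at an adjusted p under 0.05. Several of these markers were chosen by the study on these libraries. Of the other marker lists, the blocked edgeR fit called 3 of 10 SC and myoblast markers and 1 of 9 fibroblast markers lower, and 0 of the 2 adipocyte, 3 macrophage and 3 endothelial markers tested. The plot of list members sets the lists side by side, without the adipocyte, macrophage and endothelial markers.

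**Figure D5:**
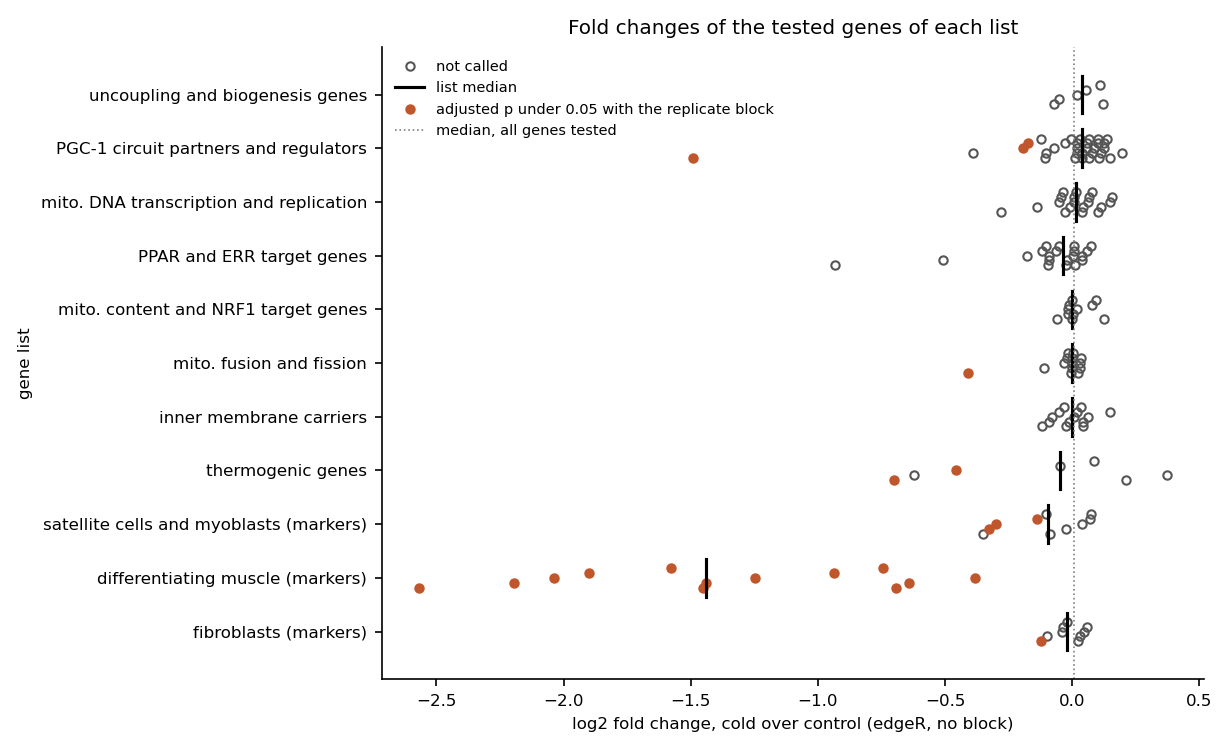
Log2 fold change of cold over control (x axis, edgeR without a block) of each tested gene, by gene list, with list medians as bars, the median of all genes as a dotted line, and filled orange points for genes with an adjusted p under 0.05 in the fit with the replicate block. The mitochondrial lists cluster at 0 with 1 filled point, Mief2, while all 13 markers of differentiating muscle lie between −2.57 and −0.38.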

How the data were processed

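RNA-seq of 8 libraries (4 control, 4 cold) was read from 1 table of the whole series. Libraries were sequenced by paired-end 150 bp reads. Per the labels, HISAT and HISAT2 were used by the submitters. The counting program, genome build and annotation are not given in the sources used here. The authors deposited expected counts (not normalized, not all whole numbers), TPM, which the authors scaled per library, and a normalized signal, the count times 1 factor per library, which was not used. Counts of the 9 genes were whole numbers in every library. All 17590 identifiers matched the RefSeq table of assembly BCM_Maur_2.0, used for names only.

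Expected counts were rounded and tested in edgeR 4.0.16 (R 4.3.3) with filterByExpr, TMM factors and the quasi-likelihood F test, with Benjamini-Hochberg adjustment over 12506 genes. Standard errors were derived from the fold change and its F statistic. A gene passed at an adjusted p under 0.05. The study's definition of a differentially expressed gene, with its added limit on fold change, was applied as an alternative. TPM and within-library log2 ratios were compared by exact two-sided permutation over all 70 arrangements of the libraries. Alternatives were DESeq2 1.42.0, limma 3.58.1 on TPM (log2, after adding 0.1 or 1), other normalizations and filters, the replicate block, and leaving out each library. The fits were tested on simulated data. Depth per library was 16530747 to 18533801 counts, and the intervals on ratios of summed counts and the floors cover counting error only, while confidence intervals of fold changes include the spread between libraries. Python 3.11.15 and matplotlib 3.10.9 were used.

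Groups and replicate numbers came from the sample titles. Deviations from the group mean, across genes, correlated by 0.61, 0.62, 0.65 and 0.66 between libraries of one number, by 0.43 to 0.59 between replicates 1 and 2 or 3 and 4, and by −0.61 to −0.55 otherwise. Since each same-number value exceeded 0.1, the numbers were taken to pair the libraries. The labels do not say what they mark, and the values also describe 2 sets, replicates 1 and 2 and replicates 3 and 4. Named genes are the 9 genes, the context genes past the test in either edgeR fit (at most 4 per list and direction, by fold change), the most abundant gene of each list, and the 2 best correlated genes with a mean of at least 1 TPM and no LOC symbol, 1 of which is not reported here. Others were named after their values were seen. The 9 genes and the lists were chosen with earlier results of these data known. The shares of the sum of squares, and their repeat on log2 TPM, were added after the data were seen.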

Additional observations from a re-analysis of the deposited data

Results flagged for a closer look

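The level of Tfam in control replicate 3, 32.47 TPM, stood apart from the other 3 control libraries, which lay between 34.86 and 35.32 TPM. Its gap to the nearest value exceeded Dixon's 95% criterion for 4 values. It was the 1 isolated value in 16 groups of 4 libraries examined for these genes, and chance alone flags about 1 in 20 such groups, or 0.8 here. Without that library the log2 fold change of Tfam was 0.011.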

How the results depend on the processing

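Under the alternatives run, 0 of the genes that could be tested among the 9 passed an adjusted p under 0.05, and the lowest adjusted p in any of them was 0.272 (Nrf1, edgeR with the replicate block). The replicate block left each of the 6 tested genes uncalled, with log2 fold changes of −0.043 for Ppara, 0.021 for Ppard, −0.061 for Esrra, 0.11 for Nrf1 and 0.055 for Tfam. Of 113 log2 fold changes under the alternatives, 9 changed sign, each in a fit that left out 1 library. Leaving out single libraries gave −0.025 to 0.26 for Ppargc1b, −0.17 to 0.24 for Ppara, −0.017 to 0.044 for Ppard, −0.19 to 0.030 for Esrra, −0.0020 to 0.087 for Tfam and 0.073 to 0.13 for Nrf1. The sign changed without cold replicates 1 and 2 for Ppargc1b (−0.017 and −0.025), control replicate 3 and cold replicate 1 for Ppara (0.24 and 0.0035), control replicate 4 and cold replicate 4 for Ppard (−0.017 and −0.00019), control replicates 1 and 2 for Esrra (0.0031 and 0.030), and cold replicate 2 for Tfam (−0.0020). Of the 145 further genes, 117 of which were tested in the main fit, 0 were called higher in any fit. The number lower was 0 in the unblocked edgeR fit and 6 with the replicate block in edgeR (0.072% and 4.07% of all genes). It was 2 with DESeq2 and 4 with DESeq2 and the replicate block (1.1% and 2.56% of all genes). With limma and the replicate block it was 6, including Mef2c, Mief2, Ryr1 and Atp2a1 but neither Mef2a nor Mef2d. Limma filtered on TPM, so the genes it tested need not be the same 117, and its share over all genes is not given here. The within-library ratio of Ppargc1a to Ppargc1b kept its direction (−1.25 to −0.50 when single libraries were left out, with an exact permutation p of 0.0286 without control replicate 1). So did that of Ppara to Ppard when single libraries were left out (−0.41 to −0.053). On expected counts in place of TPM the differences were −0.97 and −0.020 (exact permutation p = 0.143 and 0.943), the second being close to no difference. Pairing gave p = 0.375 and 0.625 in exact sign-flip permutation tests on TPM that cannot fall below 0.125. The ratio of Ucp3 to Ucp2 was not run, since Ucp3 is at 0. Few reads, 2 to 32 per library, stand behind Ucp2, Ppargc1a and Ppara.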

Other observations

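The genes in this paragraph were chosen after their values were seen. Rxrg, which encodes the nuclear receptor RXRγ, a partner of PPARs, did not pass the filter on low counts and was not tested in the main comparison. It had 48, 31, 7 and 15 counts in control replicates 1 to 4 and 5, 5, 3 and 3 counts in cold replicates 1 to 4, so each cold library lay below its control and below the other 3 controls as well. Its mean level was 1.11 TPM before and 0.163 TPM after cold. Among the tested genes, which leave out Rxrg, every cold TPM lay below every control TPM in 2.41%. The more abundant relatives Rxra (5.69 and 6.29 TPM) and Rxrb (17.1 and 18.6 TPM) were higher in the cold in 4 of 4 pairs. That was the case for 12.8% of tested genes, and edgeR called neither Rxra nor Rxrb without or with the block. Perm1, a muscle regulator of the PGC-1 and ERR pathway, had at most 9 counts in any library, with means of 0.113 and 0.0250 TPM. Fabp3, for the fatty acid binding protein of heart and muscle, had means of 3.57 and 1.87 TPM, with a log2 fold change of −0.93 that did not pass the edgeR test without or with the replicate block (adjusted p = 0.445 and 0.0634). Cpt1b, for the muscle form of carnitine palmitoyltransferase 1, had 2.74 and 1.95 TPM (edgeR log2 fold change −0.51, adjusted p = 0.797 and 0.10), while its widely expressed relative Cpt1a had 9.42 and 10.1 TPM (edgeR log2 fold change 0.075, adjusted p = 0.999 and 0.533).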
